A study of Mus musculus with 9 samples.

Results

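The polyamines putrescine, spermidine and spermine are small positively charged molecules that bind nucleic acids and are needed for growth and translation. The genes examined here are 10 that make, control or break down polyamines: Odc1, Amd1, Srm, Sms, Oaz1, Oaz2, Azin1, Sat1, Smox and Paox. They were chosen by name, through the RefSeq accession of each array probe, by a rule that uses no measured value. Earlier results of these data were known when they were chosen. Of the 10 genes, 9 had a probe, with 18 probes among the 39364 probes used. All 18 probes were well above background on all 9 arrays, so no filter on dim signal bore on these 9 genes. Amd1 had no probe under this rule.

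In the pathway, ornithine decarboxylase (ODC, from Odc1) makes putrescine, and S-adenosylmethionine decarboxylase (from Amd1) makes the aminopropyl donor that spermidine synthase (Srm) and spermine synthase (Sms) add on. Antizymes (Oaz1, Oaz2) are translated through a ribosomal frameshift that polyamines favour; they bind ODC, deliver it to the proteasome and hold back polyamine uptake, and antizyme inhibitor 1 (Azin1) binds antizyme in its turn. Spermidine/spermine N1-acetyltransferase (Sat1) marks polyamines for export or for oxidation by polyamine oxidase (Paox), whereas spermine oxidase (Smox) acts on spermine directly. Odc1 is a textbook target of MYC, which binds the DNA sequence CACGTG as a partner of MAX.

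Total RNA of sorted male mouse cells was measured on 9 one-colour Agilent arrays, 3 in each of 3 groups. The control group was the embryonic stem (ES) cell line VV3, of 129SV background, given the non-silencing siRNA AllStars and sorted after 3 days as live single cells. The Max knockdown group was the same line given siRNA against Max and sorted after 3 days as live single cells positive for Vasa::Venus, a reporter of the germ cell gene Vasa (Ddx4). Both were grown with serum replacement, serum and LIF, and only the knockdown cells were gated on Venus, so that the gate and the siRNA cannot be told apart. The third group was primordial germ cells (PGCs), the cells from which gametes arise, from genital ridges of E13.5 MCH x C57BL6/J embryos. These carried the Oct4ΔPE-GFP transgene, a pluripotency gene's regulatory sequence without its proximal enhancer driving GFP, and were sorted as live single GFP-positive cells. PGCs and ES cells therefore differed in strain, reporter, gate and culture as well as in cell type. VV3 is a single line; the sources used here do not say how many embryos made up a PGC sample.

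A level is given as log2 of the processed signal minus the 75th percentile of the array, so that 0 is the 75th percentile. Differences are of group means on this log2 scale, with the standard error (SE) and Benjamini-Hochberg adjusted p of limma's test over 20443 genes, and a gene was called at an adjusted p under 0.05. Levels of different probes are not comparable with one another. Between 58.2% and 67.6% of the spots of an array were well above background and none was saturated. Arrays of a group correlated at r from 0.991 to 0.995 across genes. Max, the targeted gene, stood at 2.84, 2.74 and 2.85 in control and 0.59, 0.83 and 1.13 in the knockdown, a difference of -1.96 (SE 0.14, adjusted p = 2.9e-05). Ddx4, the gene behind the Venus gate, was higher by 2.64 in the knockdown. For 14 germ cell markers the log2 of the summed signals, which mostly follows the brightest, was 4.04 to 4.39 in control. It was 5.63 to 5.88 in the knockdown and 7.24 to 7.44 in PGCs. Among these markers Tfap2c was lower in PGCs (0.71 to 0.93) than in control (2.48 to 3.19). Kit overlapped between PGCs and control, and the others were higher in PGCs. Of 12 markers of pluripotent ES cells, 12 were above background on all control arrays, 11 on all knockdown arrays and 11 on all PGC arrays. Of 15 gonadal somatic markers with a probe, 12 were above background on all 3 PGC arrays, 11 on all control arrays and 9 on all knockdown arrays. The log2 of the summed signals of the 15 was 2.45 to 3.39 in PGCs. It was 1.80 to 2.08 in control and 1.61 to 1.93 in the knockdown. Wt1 was lower in PGCs (-0.39 to 0.30) than in control (0.60 to 1.37). Pdgfra was also lower in PGCs (-5.25 to -4.50) than in control (-2.64 to -1.75). Sox9, Gata4 and Nr2f2 overlapped between PGCs and control, and the others were higher in PGCs. For 12 blood and endothelial markers the log2 of the summed signals was 1.45 to 2.04 in PGCs and 0.88 to 1.39 in control. Lyz2, Tie1, Emcn and Esam were among those below background on all PGC arrays, and Tie1 and Esam were lower there than in control. The globin genes Hbb-bt (-0.27, -0.85 and -1.62 in PGCs) and Hba-a1 (0.47, -0.21 and -1.15) were higher there than on every ES cell array. Hba-x, Cdh5 and Ptprc were also higher in PGCs than in control. The part of such cells in the PGC values below was not tested.

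Because MAX binds CACGTG, the RefSeq promoter windows of the members (assembly GRCm38.p6, 250 bases before to 50 bases after an annotated start) were searched for it on both strands. Windows were found for 8 of the 10 genes, 10 windows in all, and none for Srm and Azin1, which were therefore not searched. CACGTG stood in 1 window of 1 gene, Sms (window 1, first base at position -196). Of the 27025 genes with windows 8.09% hold it, and of all windows 7.15%. The GC box GGGCGG, searched on both strands and overlapping copies included, stood in 7 of the 8 genes, against 38.2% of all genes. The TATA box letters TATAAA stood in Oaz1 alone, against 15.7% of all genes, with the first base at position -3, across the annotated start. The cAMP response element TGACGTCA stood in none, against 2.03%. Only these exact letters were searched, and variant forms of the motifs were not. These are matches of letters in a short window, not binding sites. The upstream 250 bases of 4 windows are shown 5′ to 3′: Sms for its CACGTG, Odc1 as the gene with the highest GC content over its 300-base window among the members (78%), and Oaz2 and Sat1 as the members with the largest positive and negative difference from control by the probe used. Capitals mark CACGTG and GGGCGG, the latter also in its reverse complement CCGCCC.

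Sms, window 1, chrX:157492288-157492537, minus strand: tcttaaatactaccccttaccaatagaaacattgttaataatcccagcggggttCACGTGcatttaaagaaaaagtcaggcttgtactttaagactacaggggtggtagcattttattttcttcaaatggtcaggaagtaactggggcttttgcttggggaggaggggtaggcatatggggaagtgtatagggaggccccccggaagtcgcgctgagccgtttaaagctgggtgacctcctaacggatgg

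Odc1, chr12:17544623-17544872, plus strand: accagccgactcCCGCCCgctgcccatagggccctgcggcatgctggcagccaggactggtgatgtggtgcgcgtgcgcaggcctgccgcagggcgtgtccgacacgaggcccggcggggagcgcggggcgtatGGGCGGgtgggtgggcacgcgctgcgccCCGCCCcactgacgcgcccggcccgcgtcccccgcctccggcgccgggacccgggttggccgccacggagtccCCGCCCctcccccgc

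Oaz2, chr9:65676298-65676547, plus strand: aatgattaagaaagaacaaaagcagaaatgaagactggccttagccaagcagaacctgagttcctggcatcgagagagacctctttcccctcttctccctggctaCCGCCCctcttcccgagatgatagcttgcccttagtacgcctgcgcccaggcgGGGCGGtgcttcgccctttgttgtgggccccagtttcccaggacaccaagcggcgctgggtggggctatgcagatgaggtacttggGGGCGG

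Sat1, chrX:155216450-155216699, minus strand: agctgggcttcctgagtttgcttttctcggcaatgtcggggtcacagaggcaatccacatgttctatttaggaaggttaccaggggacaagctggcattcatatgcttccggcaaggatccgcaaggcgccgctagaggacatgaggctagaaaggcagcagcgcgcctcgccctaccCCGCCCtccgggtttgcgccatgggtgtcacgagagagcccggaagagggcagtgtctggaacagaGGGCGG

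In these letters CACGTG appears once, in Sms, and the GC box appears in Odc1, Oaz2 and Sat1 but not in this Sms window. The other Sms window, whose start lies downstream of this one, held 4 GC boxes and no CACGTG.

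**Figure D1:**
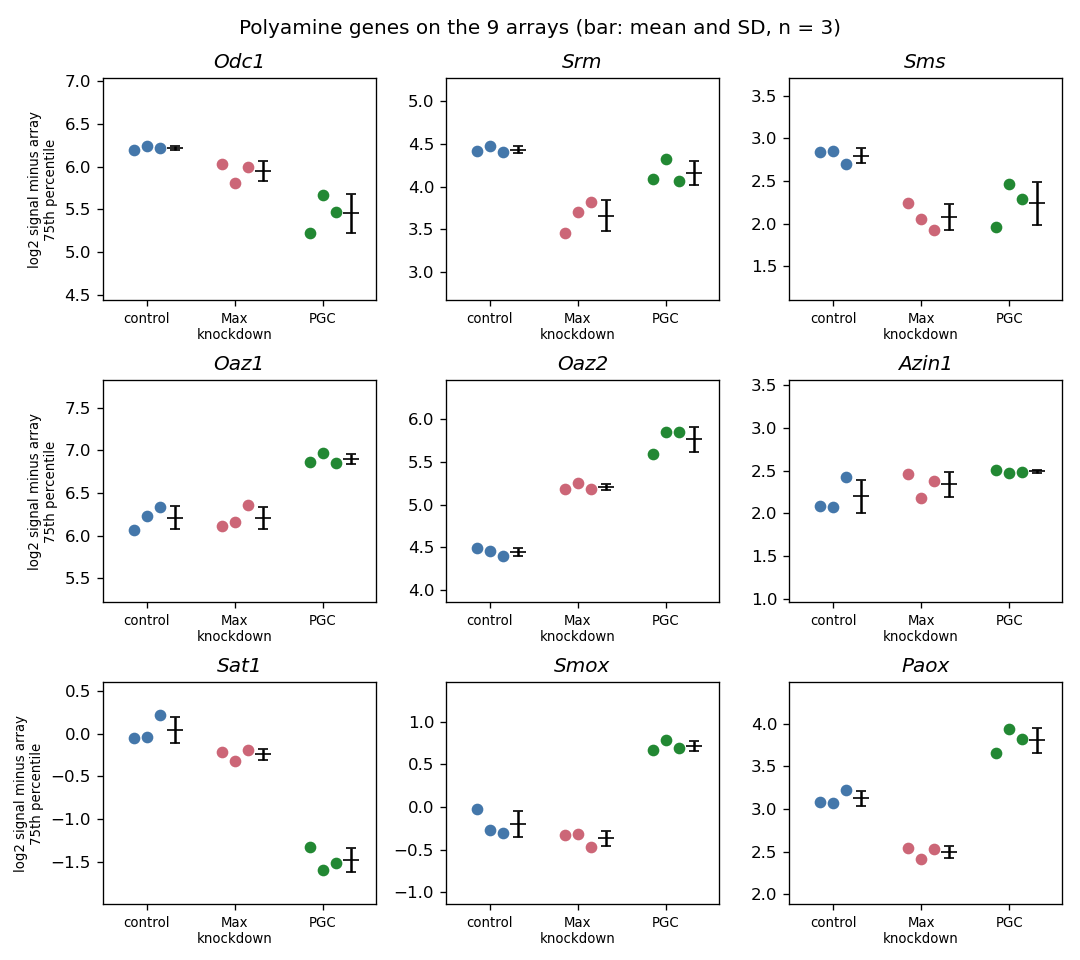
Level of each of the 9 polyamine genes with a probe (vertical axis, log2 signal minus the array's 75th percentile) on the 3 control, 3 Max knockdown and 3 PGC arrays; each point is an array, and the bar beside it is the group mean with its SD (n = 3). Srm, Sms and Paox lie lower and Oaz2 higher on all knockdown arrays than on all control arrays, and Sat1 lies lowest on the PGC arrays; the PGC levels of Oaz1, Paox and Smox lie above control on this scale and not on a spike-in scale.

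In Max knockdown cells the genes for both aminopropyl transferases fell, the oxidase gene Paox fell and the antizyme gene Oaz2 rose, while Odc1 was not called. Of the 9 genes, 4 were called, 1 higher and 3 lower, or 44.4%. The background was similar: 40.1% of all 20443 genes were called, 18.2% higher and 21.9% lower. The count is therefore near what genes at large showed. The median difference of the 9 was -0.27, against -0.07 over all genes tested. No member reached a 2-fold change by limma's test at an adjusted p under 0.05, whereas 11.1% of all genes did. An unadjusted p under 0.05 was found for 5 of the 9 members and for 9936 of the 20443 genes. The arrays of control and knockdown did not overlap for 7 of the 9, against 54.1% of all genes.

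Among the synthesis genes, Odc1 read 6.19, 6.24 and 6.22 on the control arrays and 6.03, 5.81 and 5.999 on the knockdown arrays. All 3 knockdown values lay under all 3 control values, but the gap was small. The difference was -0.27 (SE 0.12, adjusted p = 0.11), with a 95% interval from -0.55 to 0.01. With the slide as a fixed block it was called (adjusted p = 0.049), and the values within slide 1 and slide 2 were -0.30 and -0.22.

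Srm, which makes spermidine, read 4.42, 4.48 and 4.40 in control and 3.46, 3.71 and 3.82 in the knockdown. The groups lay far apart for their spread. Srm fell by 0.77 (SE 0.12, adjusted p = 0.0011), a 1.71-fold decrease with a 95% interval of 1.42 to 2.05. Its second probe gave -0.80. The fall was -0.87 within slide 1 and -0.59 within slide 2, and it was called with the slide as a block (adjusted p = 0.0039).

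Sms, which makes spermine, read 2.84, 2.86 and 2.70 in control and 2.24, 2.06 and 1.93 in the knockdown. Again no knockdown array reached a control array. Sms fell by 0.72 (SE 0.14, adjusted p = 0.0041), or 1.65-fold, with a 95% interval of 1.32 to 2.06. The other probes gave -0.75 and -0.86, and the values within the slides were -0.70 and -0.77.

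Amd1, whose product supplies both synthases, could not be followed directly. The accession of 3 probes that the array design had for it is named Amd2, a retrotransposed copy of Amd1, in the gene table used. Whether these probes tell the copies apart was not tested. The brightest of these probes read 3.33, 3.34 and 3.30 in control, 3.26, 3.26 and 3.24 in the knockdown and 3.16, 3.30 and 3.22 in PGCs, differences of -0.07 (adjusted p = 0.48) and -0.10 (adjusted p = 0.24) from control. The other probes of Amd2 stood at -0.35 and -0.89 in PGCs against control and at 0.08 and 0.32 in the knockdown, the last of these called (adjusted p = 0.042), so the probes of Amd2 disagreed.

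Of the genes that control ODC, Oaz1 did not differ detectably in the knockdown. It read 6.07, 6.24 and 6.33 in control and 6.11, 6.16 and 6.36 in the knockdown, which overlap. Its difference was -0.0043 (SE 0.10, adjusted p = 0.98), with a 95% interval from -0.24 to 0.23, and its sign changed between scalings. Azin1 read 2.09, 2.08 and 2.42 in control and 2.46, 2.18 and 2.38 in the knockdown, also overlapping, with a difference of 0.14 (SE 0.12, adjusted p = 0.38).

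Oaz2, the second widely expressed antizyme, was the member that rose. It read 4.49, 4.46 and 4.40 in control and 5.19, 5.25 and 5.18 in the knockdown. The spread within each group was narrow beside the gap. Oaz2 rose by 0.76 (SE 0.09, adjusted p = 0.00043), or 1.69-fold, with a 95% interval of 1.46 to 1.96. Its other probe gave 0.68, and the values within slide 1 and slide 2 were 0.74 and 0.78.

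Of the catabolic genes, Paox read 3.08, 3.07 and 3.22 in control and 2.54, 2.41 and 2.53 in the knockdown. All knockdown arrays lay lower. Paox fell by 0.63 (SE 0.10, adjusted p = 0.0014), or 1.55-fold, with a 95% interval of 1.32 to 1.81, and by 0.60 and 0.69 within the slides. Sat1 read -0.04, -0.03 and 0.23 in control and -0.22, -0.32 and -0.19 in the knockdown. Its difference of -0.29 (SE 0.11, adjusted p = 0.064) was not called, although the arrays did not overlap. With the slide as a block Sat1 was called (adjusted p = 0.031), and the values within the slides were -0.23 and -0.42. Smox read -0.02, -0.27 and -0.31 in control and -0.33, -0.31 and -0.47 in the knockdown, with a difference of -0.17 (SE 0.10, adjusted p = 0.22).

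Scaling on the spike-in transcripts kept the sizes of these knockdown differences but called no member by limma's test, beside 1001 of 20443 genes. None of the members had an unadjusted p under 0.05, beside 2328 of all genes. The array's 75th percentile stood at -0.78 to -0.59 (log2) relative to the spike-ins on slide 1 and at -1.83 and -1.65 on slide 2, which widened the spread within each group. With the slide as a block under spike-in scaling, the same 4 genes (Oaz2, Paox, Sms and Srm) were called, in the same directions. Of all 20443 genes 6877 were called there. With normexp background correction of all spots no member was called by limma, beside 884 of 20443 genes. An unadjusted p under 0.05 was then found for 4 members and for 4341 of all genes. The differences were then -1.16 for Srm, -0.99 for Sms and -0.97 for Paox, larger than before, and 0.36 for Oaz2, which was smaller and stood 0.12 above the median of all genes. Without the 14 spots whose local background exceeded the spot, normexp called the same 4 genes, beside 6913 of all 20440 genes.

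**Figure D2:**
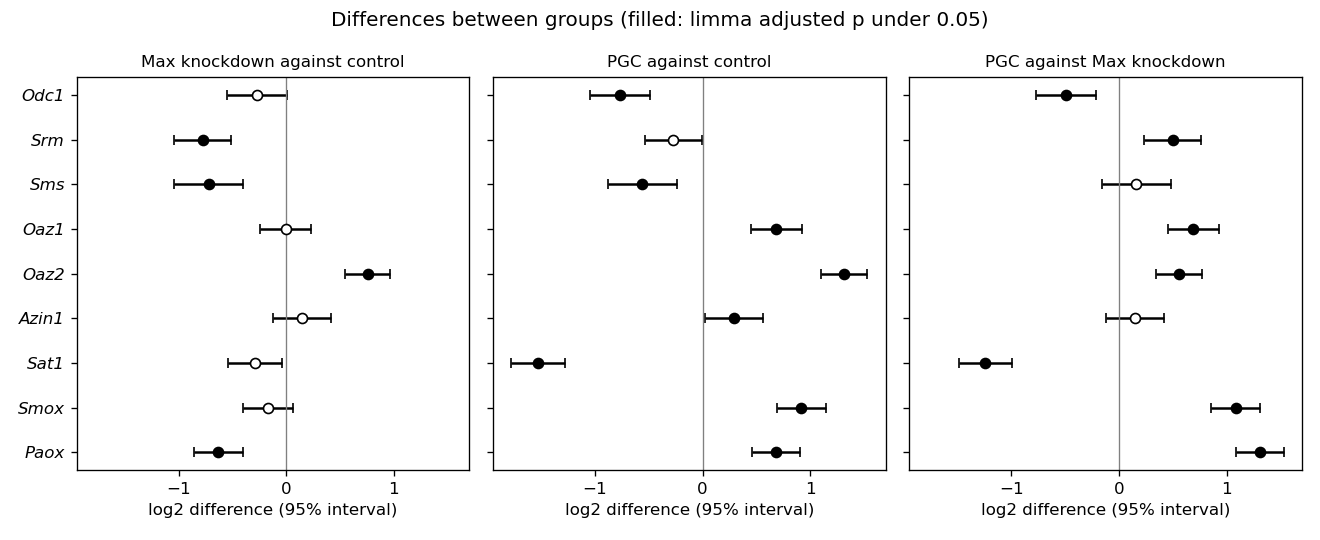
Difference of group means for each polyamine gene (horizontal axis, log2, with the 95% interval of limma's fit) in the 3 comparisons, 3 arrays a group; filled points have an adjusted p under 0.05. In the knockdown Srm, Sms and Paox lie left of 0 and Oaz2 right of it; PGC values are on the 75th percentile scale, and spike-in scaling moves Oaz1, Paox, Smox and Azin1 below 0 against control and Srm, Sms, Oaz1, Oaz2 and Azin1 below 0 against the knockdown.

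Compared with control ES cells, PGCs had lower levels of Odc1, Sms and Sat1 and higher levels of Oaz1, Oaz2, Smox and Paox on the 75th percentile scale; spike-in scaling, which moves the median of all genes from 0.18 to -0.78, turns Oaz1, Smox and Paox negative. Of the 9 genes, 8 were called, 5 higher and 3 lower, or 88.9%; the fifth higher call, of Azin1, rested on 1 of its 3 probes. This stands beside a background of 75.6% of all genes called, 43.2% higher and 32.3% lower. All 9 members had arrays that did not overlap between the groups, as did 78.5% of all genes. The median of the 9 was 0.29, against 0.18 over all genes. Changes of at least 2-fold were called for 2 of the 9, Sat1 and Oaz2, whereas 40% of all genes had such a change. Under spike-in scaling 4 members were called, all lower (Odc1, Srm, Sms and Sat1), beside 1160 genes higher and 7463 lower overall (8836 higher and 6612 lower on the 75th percentile scale). Under quantile normalization 8 were called, 4 higher and 4 lower, beside 15339 of 20443 genes, 8362 higher and 6977 lower. With normexp background correction of all spots 3 were called (Oaz2, Sat1 and Smox), beside 6014 of 20443 genes. Without the 14 spots whose local background exceeded the spot 7 were called, beside 14439 of 20440 genes. In RNA of sorted cells, fewer cells of a type and less RNA per cell cannot be told apart. The RNA input was 100 ng for every array, so the spike-in scale is relative to RNA and not to cell number.

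By the brightest probe of each of the 9 genes, Sat1 differed most between PGCs and control; a dimmer probe of Odc1 differed by -1.64. It read -1.33, -1.60 and -1.52 in PGCs, far under its range of -0.04 to 0.23 in control and of -0.32 to -0.19 in the knockdown. The level was lower than control by 2.89-fold (95% interval 2.43 to 3.44), a log2 difference of -1.53 (SE 0.11, adjusted p = 2.7e-06). It was lower than in the knockdown by 2.36-fold (95% interval 1.99 to 2.81), or -1.24 (adjusted p = 1e-05). Under all 18 alternative settings tried, both differences kept their sign and their call. Among all genes tested, 14.1% had a lower difference between PGCs and control than Sat1. Sat1 has a single probe on the array.

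Odc1 read 5.22, 5.67 and 5.47 in PGCs, under every ES cell array. It was lower than control by -0.77 (SE 0.12, adjusted p = 0.00042), or 1.70-fold with a 95% interval of 1.40 to 2.06, and lower than the knockdown by -0.49 (adjusted p = 0.0052). The size depended on the probe. The 2 dimmer probes gave -1.64 and -1.20 against control, the former more than 1.5-fold from the probe used, and -1.32 and -1.08 against the knockdown. All 3 probes agreed in direction, and so did all scalings. With normexp of all spots Odc1 was -0.77 from control and -0.084 from the knockdown and was called in neither comparison.

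Both aminopropyl transferase genes had lower means in PGCs than in control, and Sms passed the test. Srm read 4.09, 4.33 and 4.07 in PGCs, between the control and knockdown arrays. Its difference from control, -0.27 (SE 0.12, adjusted p = 0.057), was not called, but it was called in 7 of 18 alternatives. Srm was higher in PGCs than in the knockdown by 0.50 (SE 0.12, adjusted p = 0.0037), although this turned to -0.47 under spike-in scaling. Sms read 1.96, 2.47 and 2.29 in PGCs. It was lower than control by -0.56 (SE 0.14, adjusted p = 0.0059), under spike-in scaling too. Its PGC arrays overlapped the knockdown arrays, and the difference between them was 0.16 (adjusted p = 0.32), with an interval from -0.16 to 0.48.

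Both antizyme genes were higher in PGCs on the 75th percentile scale, Oaz1 not on the spike-in scale. Oaz1 read 6.87, 6.97 and 6.86 in PGCs, 0.69 above control (SE 0.10, adjusted p = 3e-04), and its difference from control was -0.27 under spike-in scaling. Oaz2 read 5.59, 5.85 and 5.85, above every knockdown array, which in turn lay above every control array. It was 2.49-fold higher than control (95% interval 2.15 to 2.88), a log2 difference of 1.31 (SE 0.09, adjusted p = 2.5e-06), and its other probe gave 1.53. Under spike-in scaling the Oaz2 difference from control stayed positive at 0.36 but was not called (adjusted p = 0.61). Against the knockdown Oaz2 was 0.56 higher (adjusted p = 0.00054), or -0.41 under spike-in scaling. Relative to the median of all genes, Oaz2 stood 1.14 higher in PGCs than in control under both of these scalings.

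Azin1 read 2.51, 2.47 and 2.49 in PGCs, just above the highest control array. Its difference from control of 0.29 (SE 0.12, adjusted p = 0.048) rested on the probe used and on the setting. The other 2 probes of Azin1 gave -0.21 (adjusted p = 0.045) and -0.45 (adjusted p = 0.021), in the opposite direction, and the mean of its probes gave -0.12. The call was lost in 12 of 18 alternatives and the sign turned in 2 more, so that no direction of Azin1 in PGCs is given here.

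**Figure D3:**
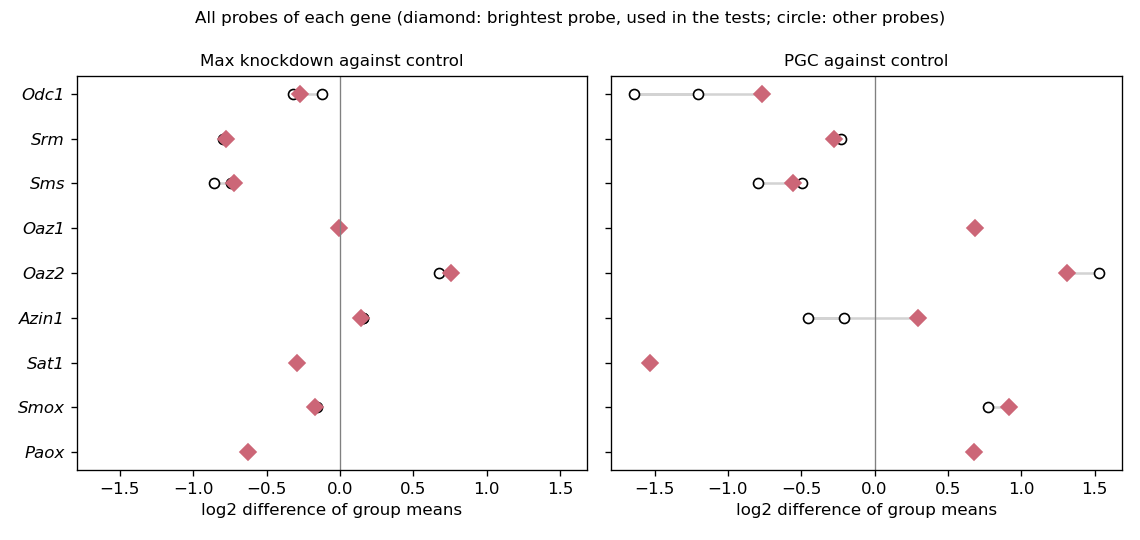
Difference of group means (horizontal axis, log2) for every probe of each polyamine gene, Max knockdown minus control at left and PGC minus control at right; diamonds are the brightest probe of a gene, used in the tests, and circles its other probes. The probes of a gene lie close together in the knockdown comparison, and in PGCs those of Odc1 spread from -1.64 to -0.77 and those of Azin1 lie on both sides of 0; all values are on the 75th percentile scale, and spike-in scaling shifts the right panel to lower values, the diamonds of Oaz1, Paox, Smox and Azin1 past 0.

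The oxidase genes were higher in PGCs than in either ES cell group on the 75th percentile scale, whereas neither was called against control under spike-in scaling. Smox read 0.67, 0.79 and 0.70 in PGCs, against a highest ES cell value of -0.02. It was 1.89-fold higher than control (95% interval 1.61 to 2.21), or 0.92 (SE 0.10, adjusted p = 3.9e-05), which became -0.038 under spike-in scaling. Its other probe gave 0.77. Paox read 3.65, 3.94 and 3.82, above all control arrays, which lay above all knockdown arrays. The Paox level exceeded control by 0.68 (SE 0.10, adjusted p = 0.00024), which became -0.27 under spike-in scaling. It exceeded the knockdown by 1.31 (SE 0.10, adjusted p = 4e-06), or 2.48-fold with a 95% interval of 2.12 to 2.90, and by 0.34 under spike-in scaling, where it was not called (adjusted p = 0.64).

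Set directly against the knockdown, PGCs had 7 of the 9 genes called, 5 higher and 2 lower, beside 76.3% of all genes, 44.9% higher and 31.4% lower. Changes of at least 2-fold were called for 3 of the 9, Sat1, Smox and Paox, beside 40.1% of all genes. The arrays did not overlap for 8 of the 9 and for 78.5% of all genes. The 5 higher genes were Srm, Oaz1, Oaz2, Smox and Paox, and under spike-in scaling Srm, Oaz1 and Oaz2 turned lower and no member was called higher. The knockdown and the PGCs were both compared with the same 3 control arrays, so their differences from control share those arrays. Paox was -0.63 in the knockdown and 0.68 in PGCs, Oaz2 was 0.76 and 1.31, Sms was -0.72 and -0.56, and Srm was -0.77 and -0.27.

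**Figure D4:**
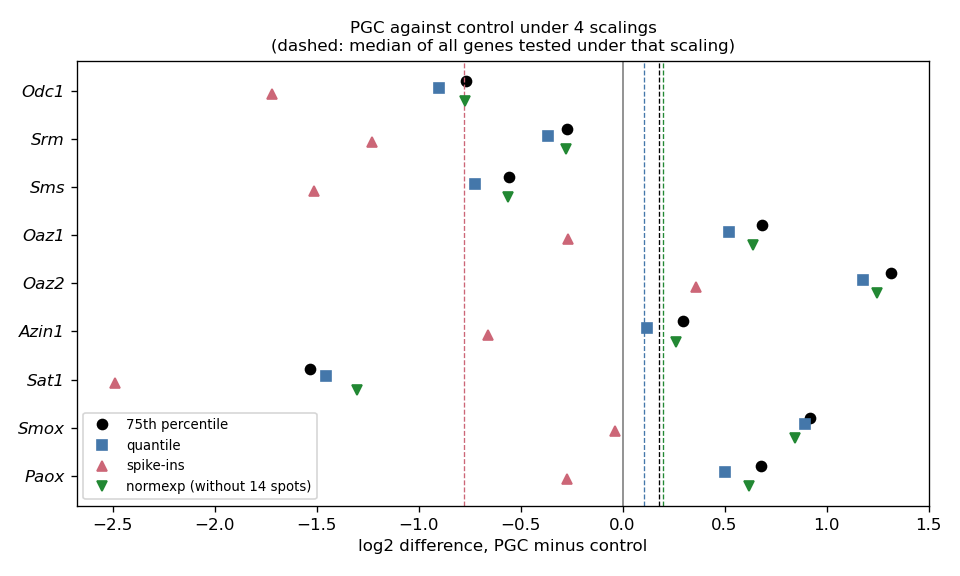
Difference of PGC and control means (horizontal axis, log2) for each polyamine gene under 4 scalings (symbols), with the median of all genes tested under each as a dashed line. Sat1, Odc1, Srm and Sms lie below 0 under every scaling shown and Oaz2 above it, while Oaz1, Paox, Smox and Azin1 cross 0 between the spike-in scale, whose median lies at -0.78, and the others.

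The position of a gene among all genes did not depend on whether the 75th percentile or the spike-ins set the scale, because both shift an array as a whole. Relative to the median of all genes, PGCs against control gave -1.71 for Sat1, -0.94 for Odc1, -0.74 for Sms and -0.45 for Srm. The same measure gave 1.14 for Oaz2, 0.74 for Smox, 0.51 for Oaz1, 0.50 for Paox and 0.12 for Azin1. The 75th percentile stood at -2.35 to -1.39 relative to the spike-ins on the PGC arrays, which lay on slides 3 and 4. The control and knockdown arrays of slide 2, at -1.83 and -1.65, lay within that range and those of slide 1 above it. No PGC array shared a slide with an ES cell array, so slide and group cannot be told apart there. With the slide as a random block, 7 of the 8 members called between PGCs and control kept their call, all but Azin1 (adjusted p = 0.089).

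Levels of the members moved together to different degrees over the 9 arrays. Because the arrays form 3 groups, these correlations mostly describe the group means and carry no test. Smox followed Paox (r = 0.907) and Oaz1 (r = 0.899) and ran against Sat1 (r = -0.939). Odc1 followed Sat1 (r = 0.887), and Srm followed Sms (r = 0.759) more than Odc1 (r = 0.205). Over the 9 arrays the genes most like Odc1 were Slc34a3 (r = 0.993), Txndc15 (r = 0.990) and Dhx16 (r = 0.987). Those most like Sat1 were B2m (r = 0.997), Pgm1 (r = 0.995) and Mbnl2 (r = 0.995). B2m, the light chain of class I histocompatibility molecules, had means of 0.10, -0.23 and -1.35 in control, knockdown and PGCs, in the order of Sat1, whose means were 0.05, -0.24 and -1.48.

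A further 63 genes around the pathway were listed by role, with earlier results of these data known, and 53 were tested. In the knockdown 25 were called, 9 higher and 16 lower (47.2%, beside 40.1% of all genes), with a median of -0.12; 2 were called under spike-in scaling, 21 with a slide block there, and 3 with normexp of all spots. In PGCs against control 44 were called, 17 higher and 27 lower (83.0%, beside 75.6%), with a median of -0.37 against 0.18 over all genes; under spike-in scaling the split was 1 higher and 31 lower, and with normexp of all spots 3 and 15. In PGCs against the knockdown 42 were called, 19 higher and 23 lower (beside 76.3%), or 1 and 26 under spike-in scaling and 8 and 13 with normexp.

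The genes listed under ornithine and arginine supply were mostly lower in PGCs. The list includes Azin2, an antizyme inhibitor gene (-1.16 from control), and Agmat, an agmatinase gene (-1.62). Neither of these 2 supplies ornithine or arginine. All 11 tested were called against control, 10 of them lower, with a median of -1.62, beside 75.6% of all genes. Those 10 were also called lower under spike-in scaling, but with normexp background correction of all spots 4 of the 11 were called (Arg2, Asl, Ass1 and Slc7a1, all lower), with a median of -0.62, and Arg1 stood at 0.040. Without the 14 spots whose local background exceeded the spot, normexp called 9, of them 8 lower, with the same median of -0.62. Ass1, which makes argininosuccinate on the way to arginine, read 3.86, 4.05 and 3.92 in control, 4.30, 4.46 and 4.44 in the knockdown and 1.25, 1.24 and 1.01 in PGCs. Its PGC arrays lay far under all ES cell arrays, by -2.78 from control (SE 0.10, adjusted p = 6.9e-08), while the knockdown was 0.45 higher than control (adjusted p = 0.0076). The knockdown difference of Ass1 was 0.049 with normexp of all spots and 0.47 under spike-in scaling, and it was called in neither, nor with a slide block under spike-in scaling. Arginase 2 (Arg2), which yields ornithine in mitochondria, read -2.92, -3.34 and -3.66 in control and 0.14, -0.36 and -0.71 in the knockdown. Every knockdown array stood above every control array, and Arg2 rose by 3.00 (adjusted p = 6.2e-05). Arg2 was not well above background on any PGC array (adjusted p = 2.1e-06), and its level there was at least 3.63-fold lower than control and at least 28.9-fold lower than the knockdown. With normexp of all spots the fitted difference of Arg2 between PGCs and control was -0.85. Arginase 1 (Arg1), the cytosolic form, was dim in control at -4.50, -4.95 and -4.69 and not well above background in the knockdown, at least 1.63-fold lower (adjusted p = 3.1e-05). This Arg1 difference turned to 0.71 with normexp background correction of all spots, and is uncertain for a probe so dim.

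The methionine cycle supplies S-adenosylmethionine, and salvage recycles the methylthioadenosine left by the synthases. The genes listed under this heading also include the amino acid transporter genes Slc43a2, Slc7a5, Slc3a2 and Slc38a2. In PGCs against control 17 of the 19 tested were called, 7 higher and 10 lower, beside 75.6% of all genes. Slc7a5, Slc3a2 and Slc38a2 were among the lower, and Slc43a2 was not called. The split was 1 higher and 10 lower under spike-in scaling and 2 and 7 with normexp of all spots. Methionine synthase (Mtr) read 0.14, 0.23 and 0.39 in control and 2.96, 2.68 and 2.87 in PGCs. It was 2.58 higher in PGCs than in control (adjusted p = 1.1e-07), 1.63 higher under spike-in scaling, and 0.42 higher in the knockdown (adjusted p = 0.012). The salvage enzymes went both ways. Mtap, which cleaves methylthioadenosine, was -0.55 in the knockdown (adjusted p = 0.0023) and -1.81 in PGCs (adjusted p = 4.6e-07). Mri1, which acts next, was -0.83 in the knockdown (adjusted p = 0.00022) and -0.92 in PGCs (adjusted p = 1.7e-05). Apip, the dehydratase after it, was 0.16 in the knockdown (adjusted p = 0.19) and 1.503 higher in PGCs (adjusted p = 9e-07), or 0.55 higher under spike-in scaling. In the knockdown 10 of the 19 were called, 4 higher and 6 lower, beside 40.1% of all genes. None was called by limma under spike-in scaling or with normexp of all spots. There 1 and 4 had an unadjusted p under 0.05, beside 2328 and 4341 of all 20443 genes.

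Of 5 further amine oxidase and aldehyde dehydrogenase genes, 3 were called in the knockdown, all lower, beside 40.1% of all genes. In PGCs against control 2 were called, both lower, beside 75.6% of all genes. Under spike-in scaling limma called 0 in the knockdown (1 at an unadjusted p under 0.05, beside 2328 of 20443 genes) and 4 in PGCs. With normexp of all spots limma called 1 and 1. All of these calls were lower. Aldh9a1, which oxidises aminoaldehydes such as those left by polyamine breakdown, read 1.27, 1.33 and 1.32 in control and 0.05, 0.28 and 0.23 in the knockdown. The arrays of the groups stood well apart, and Aldh9a1 fell by 1.12 (adjusted p = 0.00014). The amine oxidase gene Aoc3 was at -0.58, -0.24 and -0.72 in control and below background on all PGC arrays, at least 25.1-fold lower than control (adjusted p = 1.8e-08) and at least 16.8-fold lower than the knockdown. Aoc3 was also lower in the knockdown by -0.58 (adjusted p = 0.023), a call that ended without control 2, Max knockdown 1 or Max knockdown 4, and with normexp of all spots (difference -0.13). With that normexp setting the fitted difference of Aoc3 between PGCs and control was -2.72.

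Of 7 transport genes, 3 were called in the knockdown, all lower, and 6 in PGCs against control, 3 in each direction, beside 40.1% and 75.6% of all genes. Under spike-in scaling 0 were higher and 4 lower in PGCs, and with normexp of all spots 0 and 1. In the knockdown limma called 0 under either. There 0 and 1 had an unadjusted p under 0.05, beside 2328 and 4341 of all 20443 genes. The vesicular polyamine transporter gene Slc18b1 read -2.68, -2.89 and -2.89 in control, -3.77, -3.77 and -3.62 in the knockdown and -1.66, -1.59 and -1.52 in PGCs. Its groups did not overlap, with -0.90 in the knockdown (adjusted p = 0.00021) and 1.23 in PGCs (adjusted p = 4.4e-06), the latter 0.28 under spike-in scaling. The knockdown direction of Slc18b1 turned to 0.46 with normexp of all spots and was -0.46, and called, without the 14 spots. Slc12a8 was -0.42 in the knockdown (adjusted p = 0.014) and -2.66 in PGCs (adjusted p = 1.1e-07). The knockdown call of Slc12a8 was lost without Max knockdown 2 (difference -0.36), and its sign turned to 0.14 with normexp of all spots.

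Spermidine is the donor for hypusine, the modified lysine of the translation factor eIF5A, made by Dhps and Dohh. These 4 genes (Dhps, Dohh, Eif5a and Eif5a2) were singled out after their values were seen. In the knockdown Dhps fell by 0.49 (adjusted p = 0.0014) and Eif5a by 0.65 (adjusted p = 0.0024), Eif5a2 rose by 0.70 (adjusted p = 0.0012), and Dohh was -0.01 (adjusted p = 0.97). Limma called 0 of the 4 in the knockdown under spike-in scaling and with normexp of all spots. There 0 and 3 had an unadjusted p under 0.05, beside 2328 and 4341 of all 20443 genes. With a slide block under spike-in scaling 3 were called, beside 6877 of all genes. In PGCs against the knockdown all 4 were called higher, by 0.74 to 1.06, beside 76.3% of all genes called, 44.9% higher. None was called under spike-in scaling, where the unadjusted p was under 0.05 for 0 of 4 and Dohh, Eif5a and Eif5a2 turned negative. Against control the differences in PGCs were 0.57 for Dhps, 0.73 for Dohh, 0.25 for Eif5a (not called, adjusted p = 0.072) and 1.54 for Eif5a2, and only that of Eif5a2 stayed positive under spike-in scaling.

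In the group on antizyme and ODC turnover, Nqo1, a quinone reductase known to bind and shield ODC, read -1.81, -1.59 and -1.38 in control, -0.68, -0.55 and -0.19 in the knockdown and -3.12, -2.83 and -3.17 in PGCs. All 3 groups stood apart. Nqo1 rose by 1.12 in the knockdown (adjusted p = 0.001) and was lower in PGCs than in control by -1.45 (adjusted p = 5.1e-05), under spike-in scaling too. Among further antizyme, acetyltransferase and decarboxylase copies, 0 of 3 tested were called by limma in the knockdown by the brightest probe of each, 0 also at an unadjusted p under 0.05 and under each other scaling. Of these, Oaz3 and Sat2 are named after their values were seen. In PGCs Oaz3, the testis antizyme, was called higher than control (adjusted p = 0.0042), but 1 of 3 control arrays had it well above background, so no size is given, and the call was lost under spike-in scaling and with normexp of all spots. Sat2, a paralog of Sat1, was -0.71 from control in PGCs (adjusted p = 0.00064) and was called lower under both of these settings too. Without a tested level stood Otc, Slc25a2, Satl1, Aoc1, Atp13a4, Atp13a5, Slc22a2, Slc22a3 and Cav1, which were dim, and Gnmt, which had no probe.

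**Figure D5:**
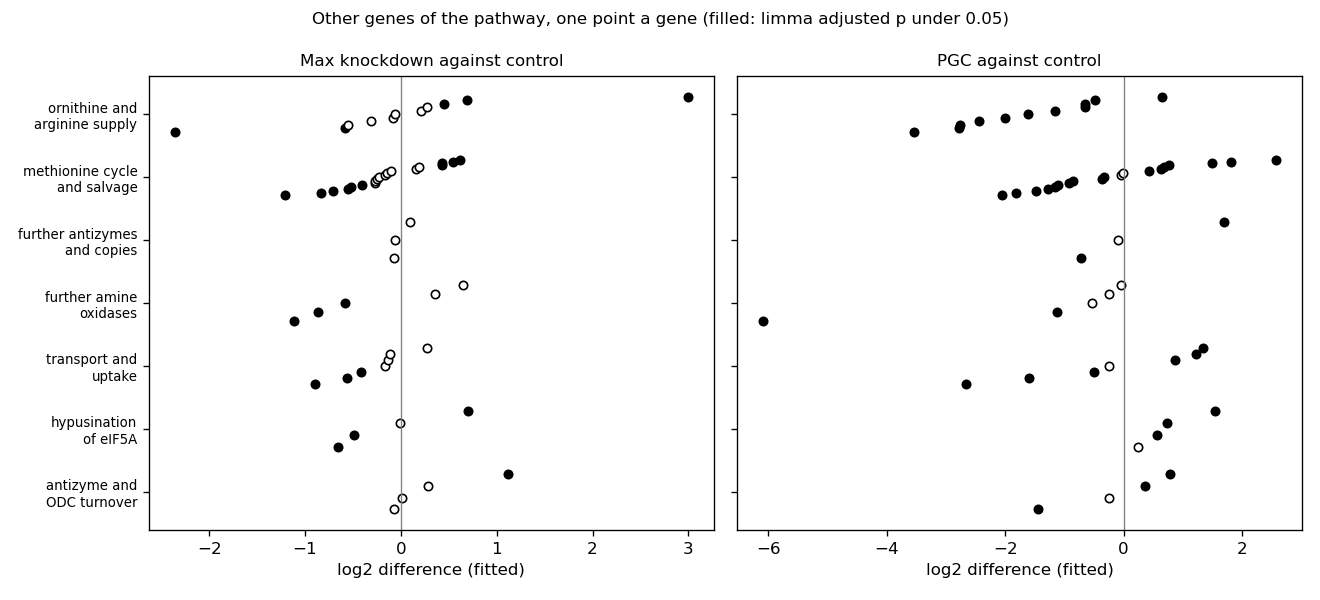
Fitted log2 differences (horizontal axis) of 53 further pathway genes by role (rows, 1 point a gene), Max knockdown minus control at left and PGC minus control at right; filled points have a limma adjusted p under 0.05. In PGCs all 11 genes listed under ornithine and arginine supply are called and 10 lie below 0. The right panel is on the 75th percentile scale, and spike-in scaling moves each of its points to lower values, leaving 1 gene called above 0. Values of genes below background in a group are fitted and not bounds.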

How the data were processed

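The intensity of each Cy3 spot came from Agilent's Feature Extraction software, as the file headers state; the authors' deposited processed intensity had the local background subtracted. The authors' deposited value table holds log2 values of unstated scale and centring; it matched the scaled signals described here after centring each probe (r across genes from 0.999922 to 0.999985 per array; column medians -0.02, -0.12, -0.07, 0, 0, 0, 0, 0.34 and 0.39), ran in the same direction and served as an alternative; any further step in it stays unknown. Here 65 probes with outlier flags were left out, spots of a probe averaged, and log2 values scaled on the array's 75th percentile. Of the probes, 26006 were named through RefSeq accessions (assembly GRCm38.p6, names only; the arrays' header gives mm9). The brightest probe of a gene was kept, and a gene was tested where every array of 1 group or more had it well above background (20443 of 32450). One limma 3.58.1 model (R 4.3.3) of the 3 groups was fitted to all 9 arrays, with Benjamini-Hochberg adjustment over genes; it was tested on simulated data. With 3 arrays a group, their number limits the precision. Replicates are biological, per the study's design text; the sources used here do not say what the replicate numbers stand for. "At least" folds set the brighter group against the lowest signal well above background. Named are the 10 members, Amd2 (for the array's Amd1 probes), Max, Ddx4, the 6 pathway genes with the smallest p in each comparison and the 3 genes most like Odc1 and Sat1. Also named are genes that do not match the heading of their list and genes said to be chosen after their values were seen. The members and gene lists were chosen with earlier results of these data known. Alternatives were quantile and spike-in scaling (7 of 10 spike-in probes), normexp (offset 50), other filters and probe rules, blocks for slide and replicate number, and leaving out each array. The normexp fit without 14 spots and the spike-in fit with a slide block were chosen after seeing the data.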

Additional observations from a re-analysis of the deposited data

How the results depend on the processing

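Of the alternatives, spike-in scaling and normexp on median signals lost the most calls. Under spike-in scaling the slides' unlike offset widened the spread within groups; the cause of the other changes was not tested. Genes called fell from 8205 to 1001 (spike-in) and 884 (normexp) in the knockdown, from 15448 to 8623 and 6014 in PGCs against control, and from 15594 to 8256 and 7195 in PGCs against the knockdown. In the knockdown 713 genes were then higher and 288 lower (spike-in) or 565 and 319 (normexp), against 3720 and 4485 before. In PGCs against control the split was 1160 and 7463 or 3023 and 2991, against 8836 and 6612, and in PGCs against the knockdown 1003 and 7253 or 3850 and 3345, against 9170 and 6424. Members called by limma fell from 4 to 0 and 0, from 8 to 4 and 3, and from 7 to 2 and 4. Pathway genes called fell from 25 to 2 and 3 in the knockdown, from 44 to 18 with normexp in PGCs against control, and from 42 to 27 and 21 in PGCs against the knockdown. Leaving out an array gave 6353 to 7123, 14557 to 15114 and 14811 to 15219 genes, 4, 7 to 8 and 7 members, and 23 to 27, 43 to 45 and 40 to 44 pathway genes.

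The log2 differences of these genes changed sign as follows. With spike-in scaling, PGCs against control gave -0.66 for Azin1, -0.27 for Oaz1, -0.27 for Paox, -0.038 for Smox and -0.10 for Max. Against the knockdown PGCs then gave -0.82 for Azin1, -0.28 for Oaz1, -0.41 for Oaz2, -0.80 for Sms, -0.47 for Srm and -0.10 for Aldh9a1, and Oaz1 was 0.0079 in the knockdown, with or without a slide block. With normexp, the knockdown gave -0.19 for Azin1, 0.0049 for Smox, -0.084 for Apip, 0.71 for Arg1, 0.14 for Slc12a8 and 0.46 for Slc18b1. PGCs then gave 0.040 for Arg1 against control, and -0.67 for Arg1 and 0.22 for Mri1 against the knockdown. Without the 14 spots, which moved that fit, the sign that turned was that of Arg1 against control (0.040). Quantile normalization gave -0.061 for Azin1 and -0.030 for Sms in PGCs against the knockdown and 0.16 for Oaz1 in the knockdown. The mean of the probes gave -0.12 and -0.27 for Azin1 in PGCs against control and the knockdown. Leaving out an array moved Oaz1 in the knockdown between -0.079 and 0.055.

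With the replicate number as a block, Srm in PGCs against control was called (adjusted p = 0.037) and Azin1 was not (adjusted p = 0.067); among members no other call changed. Deviations of same-numbered control and knockdown arrays, which lie on slide 1, correlated at 0.37 and 0.39. Differently numbered arrays of slide 1 correlated at -0.03 (control 1 and Max knockdown 2) and -0.07 (control 2 and Max knockdown 1). Control 3 and Max knockdown 4, which share slide 2, correlated at 0.51. Whether these arrays form pairs was not tested, and the main fit has no term for pairs. Of the named pathway genes, Aoc3, Ass1 and Mtr lost their knockdown calls with the replicate number as a block (adjusted p = 0.057, 0.057 and 0.051).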
